A study of Mus musculus with 3 samples.

Results

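The genes described here encode RNA polymerase II, the Mediator complex and the general transcription factors that bring the polymerase to promoters. They were chosen by symbol, as the protein-coding genes of GENCODE M21 whose symbol starts with Polr2 or Gtf2, or is Med or Taf followed by a digit, which gave 82 of 21951 protein-coding genes. There were 13 Polr2 genes, 16 Gtf2 genes, 30 Med genes and 23 Taf genes. In each of them the histone mark H3K36me3 was compared between regulatory T (Treg) cells from spleen and from large intestine (LI).

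The study examined the role of the H3K36 methyltransferase Setd2 in Treg cells, and this series profiled H3K36me3 by chromatin immunoprecipitation sequencing (ChIP-seq) in Treg cells in which Setd2 was intact. Treg cells were sorted as CD3+CD4+Foxp3-YFP+ cells from adult C57BL/6 Foxp3Cre-YFP mice (genotype Foxp3-YFP in the labels) at steady state, with no agent given. The Cre-YFP cassette is driven by Foxp3 and marks the sorted cells in both groups. Cells of 7 male and 7 female mice were pooled, 1 μg of chromatin went into each immunoprecipitation, and each tissue had 1 library read as single ends of 75 nt. An input library of splenic Treg chromatin was also made and was not analysed here. With 1 library per tissue no difference has a replicate check, so no p-value is given, and the difference between tissues cannot be told apart from the difference between the 2 libraries or pools.

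RNA polymerase II transcribes all protein-coding genes. TFIID, made of the TATA-binding protein TBP and the TAF proteins, recognizes the promoter, TFIIA and TFIIB steady it there, TFIIF escorts the polymerase, and TFIIE and TFIIH open the DNA and phosphorylate the polymerase tail. Mediator carries signals from DNA-bound activators to this assembly. H3K36me3 is laid down behind the moving polymerase, because Setd2 binds the phosphorylated tail of the largest polymerase subunit, so the mark lies over the bodies of transcribed genes and is usually strongest towards their 3′ end.

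The tail to which Setd2 binds is itself encoded under H3K36me3. Polr2a, which encodes the largest subunit, lies on the minus strand of chromosome 11 (mm10, 69733997 to 69758637). Its last coding exon (69734413 to 69735566, 1154 bp) encodes 21 exact copies of the tail's 7-residue repeat (tyrosine, serine, proline, threonine, serine, proline, serine) and lay inside the longest Polr2a peak, of 10865 bp, at 32.0 RPKM in spleen and 33.8 in LI. The stretch printed here holds 6 of these repeats in a row, read from GRCm38 on the gene's strand at chr11:69735103-69735228. Capitals mark the codons of the serines at the second and the fifth place of each repeat, the residues whose phosphorylation Setd2 recognizes.
Polr2a tail: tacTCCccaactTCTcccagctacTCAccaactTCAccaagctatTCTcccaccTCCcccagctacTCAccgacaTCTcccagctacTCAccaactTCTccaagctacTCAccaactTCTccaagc

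A pair of peak centres is shown as well, from the Mediator genes whose counting intervals lay farthest from 0 in either direction. Both are intronic, 120 bp long and printed on the gene's strand, which is the minus strand in both, and capitals mark G and C, because the ratio between the libraries moved with GC content (49.7% and 46.3% in the whole peaks). The Med16 window (GRCm38 chr10:79905369-79905488) has 67 G or C bases (55.8%) and is the centre of a 706-bp peak with 17.2 RPKM in spleen and 22.0 in LI. The Med18 window (chr4:132460989-132461108) has 62 (51.7%) and is the centre of a 451-bp peak with 12.5 RPKM in spleen and 6.39 in LI.
Med16 peak centre: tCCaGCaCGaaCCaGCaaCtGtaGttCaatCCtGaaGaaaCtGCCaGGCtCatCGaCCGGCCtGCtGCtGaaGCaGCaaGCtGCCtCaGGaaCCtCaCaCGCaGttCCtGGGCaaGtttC
Med18 peak centre: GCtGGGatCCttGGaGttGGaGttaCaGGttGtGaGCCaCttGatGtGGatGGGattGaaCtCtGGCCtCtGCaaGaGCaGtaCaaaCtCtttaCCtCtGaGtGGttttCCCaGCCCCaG

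The deposited value of a peak is its mean read coverage in RPKM, which is scaled to length and sequencing depth. A peak was given to a gene when its midpoint lay in the gene body, and the peak values were summed per gene and library after each library was scaled to the same total over all 120910 peaks. This sum grows with the number of peaks, so it was compared between libraries only. Levels were compared between genes as a density, that is, the RPKM of every peak base in the gene body, with 0 outside peaks, divided by the length of the body. Ratios are log2 of LI over spleen on the scale of log2(sum + 0.5 RPKM), which understates the change of low genes, and were taken for genes whose libraries added up to 20 RPKM or more. Their approximate 95% counting interval, given in brackets, treats each read as covering 200 bp and covers counting error only. After a median, brackets give its binomial 95% interval over genes, which are not replicates of a tissue. The steps between values multiplied by peak length correspond to 29600000 mapped reads for spleen and 38100000 for LI, and 1 read in a 20-bp bin was worth 1.69 and 1.31 RPKM. Of 7 Treg marker genes fixed for this work, 7 had a peak, with a summed level of 1839 RPKM in spleen and 1512 in LI. Ikzf2 alone, with 115 peaks, gave 1224 and 837.5 RPKM of these sums, the other 6 summed to 615.0 and 675.0 RPKM, and 4 of the 7 were higher in LI. Of the B cell markers Cd79a had 48.0 and 29.3 RPKM and Pax5 4.12 and 9.76 RPKM, with no peak in Ebf1 and Ms4a1. Of 5 intestinal epithelial markers 2 had a peak (30.4 and 58.9 RPKM, with none in Cdx1, Krt20 and Krt8) and of 5 myeloid markers 1 (14.9 and 16.1 RPKM, with none in Adgre1, Cd14, Itgam and Lyz2). The part of other cells in the values of the transcription genes was not tested.

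Nearly all of the transcription genes carried H3K36me3 in Treg cells. A peak was found in 78 of the 82 genes (95.1%), against 45.7% of all protein-coding genes. The share was 92.3% for Polr2, 93.8% for Gtf2, 96.7% for Med and 95.7% for Taf genes. Among genes under 10 kb, 27 of the 29 transcription genes had a peak (93.1%), against 28.3% of all coding genes of that length. The 4 genes without one were Med11, Polr2k, Gtf2a1l and Taf7l. Med11, a Mediator subunit gene of 1809 bp, still had 38.2% of its body under 1 peak centred outside it, with a density of 5.50 RPKM in spleen and 3.60 in LI. No peak overlapped Polr2k, which encodes a small subunit shared by all 3 RNA polymerases, nor Gtf2a1l and Taf7l, the relatives of TFIIA and Taf7 known from germ cells. A further 3 genes had a peak but stayed under 20 RPKM (Polr2i, Med21 and Taf7), which left 75 genes whose ratios are counted.

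**Figure D1:**
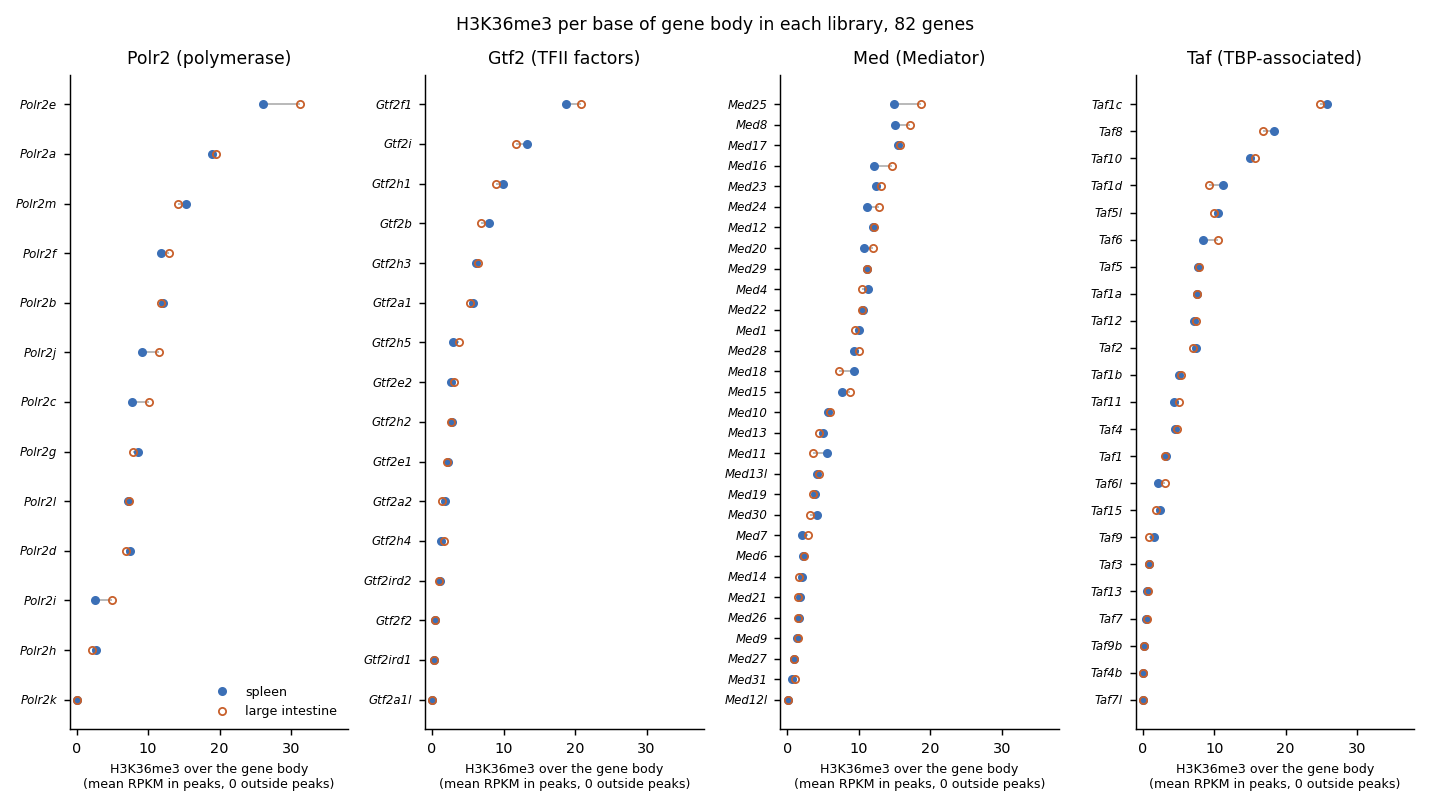
H3K36me3 density over the gene body (x axis, mean RPKM in peaks with 0 outside peaks) of the 82 genes, 1 row per gene in 4 panels by family, ordered by the mean of both libraries. Filled circles are spleen and open circles large intestine, 1 library each, and the circles of a gene mostly lie close together while densities range from 0 to 31.3 RPKM.

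Within the group, density varied far more from gene to gene than between the tissues. Over the 75 genes the median density was 7.23 RPKM in spleen and 6.89 in LI, against 5.03 and 5.12 RPKM over the 9456 coding genes that passed the same filter. Peaks covered a median of 47.8% of the body, against 39.2% over all coding genes. The median density under 10 kb was 8.89 and 9.00 RPKM, against 8.01 and 8.24 over all coding genes. It was 7.89 and 8.38 RPKM at 10 to 30 kb, against 6.75 and 6.86. At 30 kb or more it was 2.82 and 3.04 RPKM, against 2.85 and 2.86. The highest density belonged to Polr2e, which encodes a subunit common to all 3 polymerases, with 26.1 RPKM in spleen and 31.3 in LI, and 87.3% of its 3847-bp body was covered. Taf1c followed with 25.7 and 24.7 RPKM, Gtf2f1, the larger TFIIF subunit, with 18.7 and 20.9 RPKM, and Polr2a with 19.0 and 19.5 RPKM. Taf8 came next with 18.3 and 16.9 RPKM. Counting the whole length of each peak centred in the gene adds the parts that reach past the gene ends. Med8 then took the place of Taf8 among the 5 highest, at 22.0 and 24.9 RPKM (15.1 and 17.2 RPKM within the body). At the other end stood Med12l, at 0.045 and 0.051 RPKM over a body of 312858 bp, and Taf4b, at 0.035 and 0.027 RPKM. These are the paralogues of Med12 (11.9 and 12.1 RPKM) and Taf4 (4.52 and 4.78 RPKM), and all 3 Med12l peaks also lay in Gpr171, a gene inside it.

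Other paralogues lay nearer to each other in density. Taf9 had 1.53 RPKM in spleen and 0.90 in LI, and its relative Taf9b had 0.20 and 0.24 RPKM. Taf5 and Taf5l, the latter a part of the SAGA-type coactivator rather than of TFIID, were at 7.78 and 7.84 RPKM and at 10.5 and 9.92 RPKM, and all 7 Taf5l peaks also lay in Gm20388. Med13 and Med13l, both in the kinase module of Mediator, were at 4.98 and 4.46 RPKM and at 4.18 and 4.48 RPKM.

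The mark was low at the gene start and high towards the 3′ end in both tissues. Averaged over the 75 genes, it was 0.73 RPKM in spleen and 0.83 in LI in the first 5% of the body, 8.70 and 9.12 RPKM just past the middle, and 11.1 and 11.7 RPKM between 90 and 95% of the body. The same bins over all coding genes gave 0.78 and 0.90, 7.99 and 8.26, and 10.2 and 10.8 RPKM. Peaks centred past the middle of the body held a median of 74.2% of a gene's signal (value times length) in spleen and 75.0% in LI, against 80.1% and 80.9% over all coding genes. The direction differed with gene length. Under 10 kb the median shares were 97.3% and 95.8%, against 94.6% and 94.3% over all coding genes. They were 66.7% and 67.3% at 10 to 30 kb, against 77.2% and 78.1%. At 30 kb or more they were 59.6% and 62.4%, against 75.7% and 76.6%. In 14 of the 75 genes peaks centred past the middle held under 50% of the signal in both libraries. Med12l and Taf4b had none of their signal there in either library, and Gtf2ird2, Med27 and Taf1 had 16.9%, 21.9% and 24.8% in spleen. Taf6l and Polr2c had 6.64% and 1.00% of the spleen signal and 8.21% and 2.18% of the LI signal there, and the single Taf10 peak, which covered 93.2% of the body, was centred before the middle. The longest Polr2c peak, of 5700 bp, was also centred before the middle although it reached past it, so its whole signal was placed before the middle. A peak, whatever its midpoint, reached within 1 kb of the outermost gene start in 17 of the 78 genes with a peak (21.8%), against 19.9% of all coding genes with a peak.

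**Figure D2:**
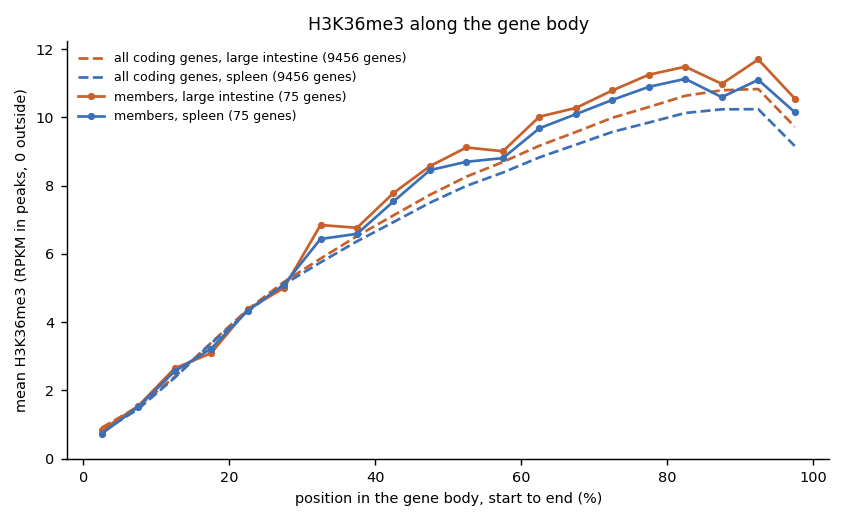
Mean H3K36me3 (y axis, RPKM in peaks with 0 outside) in 20 bins along the gene body (x axis, % from start to end) for the 75 transcription genes (solid lines with points) and 9456 coding genes (dashed lines) in spleen (blue) and large intestine (orange). All 4 lines start under 1 RPKM and climb towards the 3′ end, reaching 11.1 RPKM in spleen and 11.7 in LI between 90 and 95% of the body in the transcription genes.

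Between the tissues, the transcription genes were close to even. The median log2 ratio over the 75 genes was 0.0075 (binomial 95% interval of the median -0.040 to 0.062), against 0.0047 (-0.0028 to 0.012) over all coding genes. The value was higher in LI for 40 genes and higher in spleen for 35. The middle range of the ratios (25th to 75th percentile) was -0.13 to 0.19, against -0.20 to 0.23 for all coding genes, and their SD was 0.29 against 0.47. In 57 of the 75 genes (76.0%) the libraries differed by less than 1.25-fold, as in 66.4% of all coding genes. None of the 75 was past 2-fold in either direction, where 3.24% of coding genes were 2-fold or more higher in LI and 1.81% in spleen. The interval lay wholly above 0 (higher in LI) in 9 of the 75 genes (12.0%), against 18.5% of coding genes, and wholly below 0 (higher in spleen) in 5 (6.67%), against 15.9%. These shares were not tested against each other. In a pool of cells, more cells with the mark and more of the mark per cell cannot be told apart. Of the 829 peaks in these genes 47.2% were higher in LI, against 48.9% of the peaks in all coding genes.

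**Figure D3:**
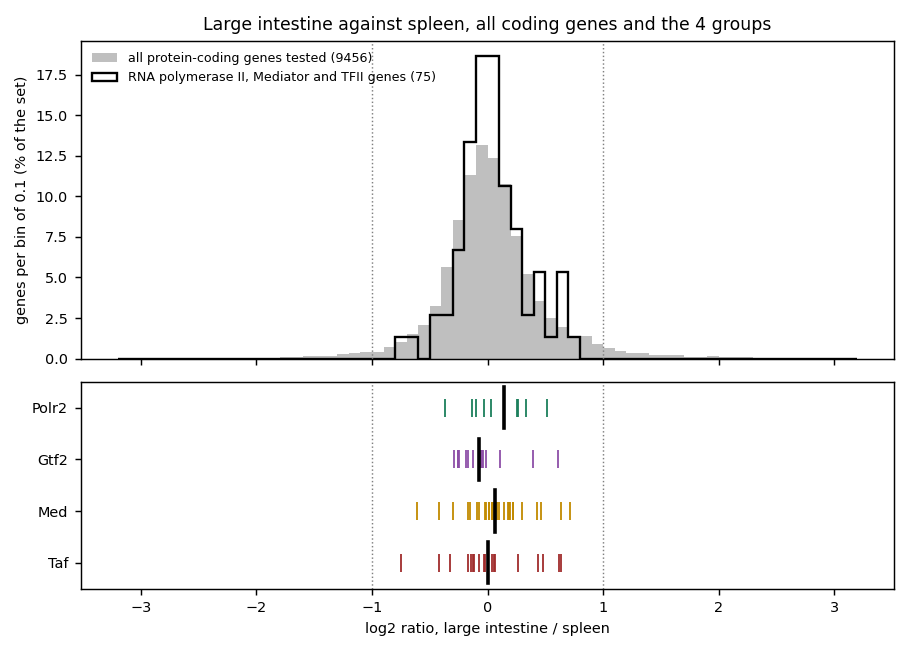
Upper panel, histogram of the log2 ratio, large intestine to spleen (x axis, bins of 0.1) as % of each set (y axis), with all 9456 coding genes in grey and the 75 transcription genes as a black outline. In the lower panel each tick is a gene and each black bar the family median (Polr2 0.14, Gtf2 -0.073, Med 0.063, Taf 0.0051), and every tick lies between the dotted 2-fold lines.

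The 13 Polr2 genes encode the polymerase subunits and 1 associated protein, and 11 of them were counted, with a median log2 ratio of 0.14 (-0.14 to 0.34). The median was 0.012 with peaks weighted by length and 0.028 with peaks that lie in no other coding gene. The large subunits, which form the catalytic cleft, were nearly even. Polr2a had 83.5 RPKM in spleen and 85.1 in LI over 5 peaks (log2 0.03, -0.22 to 0.27). Polr2b had 309.0 and 303.2 RPKM over 22 peaks (-0.03, -0.15 to 0.10), the narrowest interval among the polymerase genes. Polr2c, whose product helps to nucleate polymerase assembly, had 61.8 and 74.1 RPKM (0.26, -0.06 to 0.58), and 2 of its 5 peaks also lay in Dok4.

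Intervals lay above 0 in 2 of the 11 polymerase genes counted (18.2%), against 18.5% of all coding genes. Both genes were short, in a family whose counted genes had a median length of 7.50 kb. Polr2e had 43.0 RPKM in spleen and 54.4 in LI, higher in LI in both of its peaks (log2 0.34, 0.10 to 0.58). Polr2j, which encodes a subunit that pairs with Polr2c, had a single counted peak with 11.4 and 16.6 RPKM (0.52, 0.02 to 1.02). After the GC correction described for Med16 below, Polr2e was at 0.07 and Polr2j at 0.40. The subunits shared between polymerases gave ratios of both signs. Polr2f had 74.5 and 82.2 RPKM (0.14, -0.10 to 0.38) and Polr2l 25.4 and 30.4 RPKM (0.26, -0.31 to 0.82), while Polr2h had 40.8 and 31.5 RPKM (-0.37, -1.04 to 0.30). All 3 of these intervals span 0.

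Polr2d and Polr2g encode the stalk that protrudes from the polymerase core. Polr2d had 26.6 RPKM in spleen and 24.8 in LI (log2 -0.10, -0.38 to 0.19), and Polr2g had 29.4 and 32.5 RPKM (0.14, -0.26 to 0.55). By density Polr2g was instead higher in spleen (8.58 RPKM, against 7.95 in LI). Polr2m, which encodes a protein associated with the polymerase and known to make it dependent on Mediator, had 36.8 and 33.4 RPKM (-0.14, -0.37 to 0.09). Polr2i, under the level filter, had 5.12 and 12.4 RPKM in 1 peak (1.20, 0.03 to 2.38) and is not in the counts. It is the only one of the 82 genes past 2-fold, at a level where a few reads decide the ratio.

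The Gtf2 genes were mostly a little higher in spleen. Of 15 genes counted, 12 were higher in spleen and 3 in LI, with a median of -0.073 (binomial interval over genes -0.25 to -0.012). All 15 were read from the same pair of libraries, so this interval does not measure the spread between samples. The median turned to 0.098 when only the strongest peak of each gene was used, the one with the highest RPKM over both libraries, whatever its length. Under that setting the median over all coding genes moved from 0.0047 to 0.060. Gtf2b, the single-chain factor TFIIB that links TBP to the polymerase, had 104.7 RPKM in spleen and 87.6 in LI (log2 -0.26, -0.56 to 0.05). The TFIIA genes Gtf2a1 and Gtf2a2 gave -0.07 and -0.29, the TFIIE genes Gtf2e1 and Gtf2e2 gave -0.04 and 0.11, and the TFIIF genes Gtf2f1 and Gtf2f2 gave -0.05 and -0.26, all with intervals that span 0. Of the 12 genes higher in spleen, Gtf2f1 and Gtf2h3 were higher in LI by density (18.7 and 20.9 RPKM, 6.14 and 6.46 RPKM). With peaks weighted by length the Gtf2 median was -0.10. After the GC correction described for Med16 below, it was -0.071. Gtf2a1, Gtf2h1 and Gtf2h2 then turned to higher in LI (0.095, 0.057 and 0.0081). No Gtf2 gene turned the other way. The peaks of the Gtf2 genes had a median GC content of 45.0%, against 47.6% for the 75 genes. Over all coding genes of 30 kb or more the median ratio was -0.037. The part of GC content and gene length in the Gtf2 median was not tested.

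TFIIH is the factor that opens promoter DNA and that also serves in nucleotide excision repair. Its core genes Gtf2h1, Gtf2h2, Gtf2h3 and Gtf2h4 gave log2 ratios of -0.13, -0.17, -0.01 and 0.40, none with an interval off 0. Gtf2h5, the smallest subunit, had 20.9 RPKM in spleen and 32.1 in LI over 3 peaks, each higher in LI (log2 0.61, 0.10 to 1.12). Most of this came from a peak of 363 bp with 3.13 and 11.6 RPKM, while its longest peak, of 1257 bp, had 10.6 and 11.4 RPKM (0.10).

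Gtf2i encodes TFII-I, a signal-responsive factor of lymphocytes that is not a core part of the initiation complex. It had 609.3 RPKM in spleen and 534.0 in LI over 43 peaks, of which 15 were higher in LI (log2 -0.19, -0.31 to -0.07). Its longest peak, of 13153 bp at the 3′ end, had 27.6 and 23.9 RPKM (-0.21). The gene lies between its relatives Gtf2ird2 and Gtf2ird1 on chromosome 5, 13.5 kb and 42.9 kb away. These had 102.3 and 98.2 RPKM (-0.06, -0.43 to 0.31) and 78.2 and 65.8 RPKM (-0.25, -0.73 to 0.23), so all 3 values were below 0 and 1 interval excluded it. Their densities were far apart, with 13.3 RPKM in spleen for Gtf2i, 1.09 RPKM for Gtf2ird2 and 0.27 RPKM for Gtf2ird1.

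**Figure D4:**
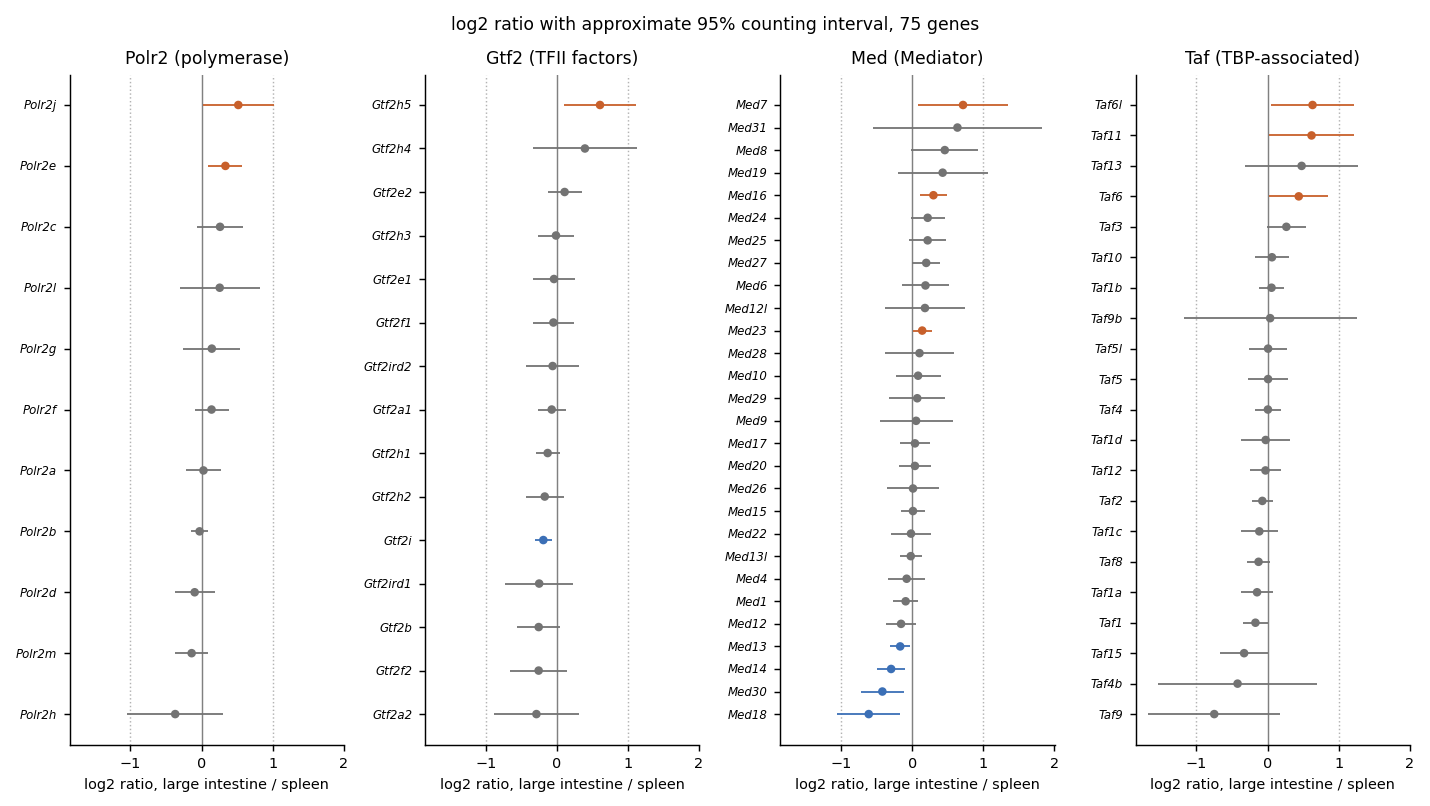
Log2 ratio, large intestine to spleen (x axis), of the 75 genes counted, 1 row per gene in 4 panels by family, with bars for the approximate 95% counting interval and dotted lines at 2-fold. Orange marks the 9 genes whose interval lies above 0 and blue the 5 whose interval lies below 0, the latter all Med genes but Gtf2i.

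The Mediator genes, the largest of the 4 families, had intervals off 0 in both directions. Of 28 genes counted, 19 were higher in LI and 9 in spleen, with a median of 0.063 (-0.017 to 0.19). Intervals lay above 0 in 3 genes (Med7, Med16 and Med23) and below 0 in 4 (Med13, Med14, Med18 and Med30), together 7 of the 28 genes, where 34.4% of all coding genes had an interval off 0. Med16, a tail subunit that meets activators, had 133.2 RPKM in spleen and 164.0 in LI, with 8 of its 9 peaks higher in LI (log2 0.30, 0.11 to 0.49). It lies 127 kb from Polr2e on chromosome 10. The peaks of Med16 and Polr2e were rich in GC (55.9% and 57.0%, against a median of 47.6% for the 75 genes), and after a GC correction, in which each peak's ratio was divided by the median ratio of all peaks of like GC content (20 bins), the ratios were 0.05 and 0.07.

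Med7, which lies in the hinge of the middle module, had 12.6 RPKM in spleen and 21.1 in LI over 2 peaks (log2 0.72, 0.08 to 1.35), the highest ratio of the 75. Most of this came from the shorter peak, of 441 bp, with 3.65 and 10.8 RPKM, while the longer one had 9.00 and 10.3 RPKM. Med23, a tail subunit that receives signals from the Ras pathway, had 323.4 and 356.5 RPKM over 25 peaks (0.14, 0.01 to 0.27). Med8, a head subunit, had 27.8 and 38.4 RPKM (0.46, -0.01 to 0.93).

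The Mediator genes higher in spleen were of several modules. Med18, a head subunit, had 52.6 RPKM in spleen and 34.3 in LI, lower in LI in all 4 peaks (log2 -0.61, -1.05 to -0.17). The difference was small in its longest peak, of 3069 bp (17.7 and 15.5 RPKM), and larger in a pair of short ones (12.5 and 6.39 RPKM, 14.2 and 5.31 RPKM). Med30, a subunit found in animals and not in yeast, had 152.8 and 114.1 RPKM over 12 peaks, 2 of them higher in LI (-0.42, -0.72 to -0.12). Its ratio was -0.07 in the strongest peak alone.

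Med14, the backbone that joins the modules, had 383.4 RPKM in spleen and 312.1 in LI over 42 peaks, 12 of them higher in LI (log2 -0.30, -0.50 to -0.10), and its strongest peak alone gave 0.17. It lies on the X chromosome, where the median ratio of 212 coding genes was -0.16 (-0.21 to -0.11). The 4 X-linked transcription genes counted had the same median, -0.16, with Med12 at 165.8 and 148.7 RPKM (-0.16, -0.37 to 0.05) and Taf1, 235 kb downstream of it, at 386.7 and 343.5 RPKM (-0.17, -0.35 to 0.01). The medians were less alike by the ratio of densities, at -0.020 for these 4 and -0.13 for all X-linked coding genes. After the GC correction they were -0.082 and -0.14. The part of the chromosome in the Med14 value was not tested.

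Med12, Med13 and their paralogues form, with a kinase, the detachable module that regulates Mediator. Med13 had 529.3 RPKM in spleen and 470.7 in LI over 52 peaks, 20 of them higher in LI (log2 -0.17, -0.31 to -0.03). Its peaks had 39.1% GC, and the GC correction turned the ratio to 0.12, while its strongest peak alone gave 0.73. That peak was 396 bp long, with 12.7 RPKM in spleen and 21.4 in LI. The longest Med13 peak, of 4164 bp, gave -0.02. Med13l had 341.5 and 336.7 RPKM (-0.02, -0.18 to 0.14) and Med12l 31.8 and 36.1 RPKM (0.18, -0.38 to 0.74). Med1, the subunit that nuclear receptors bind, had 220.2 and 206.6 RPKM (-0.09, -0.27 to 0.08).

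The Taf genes of TFIID and its relatives were close to even. Of 21 Taf genes counted 11 were higher in LI and 10 in spleen, with a median of 0.0051 (-0.13 to 0.062). Of all coding genes tested, 18.5% had an interval above 0 and 15.9% below. The Taf genes had 3 intervals off 0, all above it. They belonged to Taf6l (34.7 RPKM in spleen and 54.0 in LI over 4 peaks, log2 0.63, 0.05 to 1.22), Taf6 (28.8 and 39.2 RPKM over 3 peaks, 0.44, 0.03 to 0.85) and Taf11 (16.3 and 25.3 RPKM over 2 peaks, 0.62, 0.02 to 1.22). Every peak of these 3 genes was higher in LI. Most of the Taf11 difference came from a peak of 200 bp at the gene start with 3.19 and 10.5 RPKM, while its longer peak, of 3865 bp, had 13.1 and 14.7 RPKM (0.16), and 1 of its 2 peaks also lay in Anks1. Taf6 is the histone-fold partner of Taf9 in TFIID, and Taf6l takes its place in the SAGA-type coactivator. Taf9 itself had 24.6 and 14.4 RPKM over 2 peaks of 257 and 311 bp (-0.75, -1.68 to 0.18), the lowest ratio of the 75 with an interval that spans 0, and both peaks also lay in the overlapping gene Ak6.

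Other Taf genes had intervals that span 0. Taf10 had 16.1 RPKM in spleen and 16.8 in LI in a single peak shared with Ilk (log2 0.06, -0.18 to 0.31). Taf15, which encodes an RNA-binding protein of the FET family, had 143.4 and 114.0 RPKM (-0.33, -0.66 to 0.01). Taf4b had 17.1 and 12.6 RPKM (-0.42, -1.54 to 0.69), and Taf7, under the level filter, had 8.07 and 11.8 RPKM (0.52, -0.99 to 2.03) in a single peak that also lay in Gm37013, Gm37388 and Gm42416.

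Taf1a, Taf1b, Taf1c and Taf1d carry the symbol but serve RNA polymerase I, as parts of the factor SL1 at ribosomal RNA genes. Their median was -0.071. Taf1a had 123.5 RPKM in spleen and 111.4 in LI (log2 -0.15, -0.37 to 0.08), Taf1b 362.0 and 376.4 RPKM (0.06, -0.11 to 0.23), Taf1c 79.6 and 73.4 RPKM (-0.12, -0.38 to 0.15) and Taf1d 61.2 and 60.1 RPKM (-0.03, -0.37 to 0.32). All 4 intervals span 0, and their median density was 9.36 RPKM in spleen and 8.46 in LI.

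The genes that work with this machinery but have other names were also close to even. Of 28 partner genes (TBP and its relatives, the kinases of TFIIH and Mediator, tail phosphatases and polymerase assembly factors) 28 had a peak and 27 were counted, with a median log2 ratio of -0.028 (-0.25 to 0.095), 2 intervals above 0 and 4 below. Tbp had 173.3 RPKM in spleen and 163.9 in LI (-0.08, -0.27 to 0.11). Of the kinases, Cdk7 of TFIIH had 216.7 and 209.9 RPKM (-0.05, -0.26 to 0.16), Cdk8 of Mediator 311.3 and 316.0 RPKM (0.02, -0.17 to 0.22), its paralogue Cdk19 133.5 and 112.5 RPKM (-0.25, -0.62 to 0.13) and their cyclin gene Ccnc 62.8 and 61.5 RPKM (-0.03, -0.47 to 0.42). Of 25 genes of RNA polymerases I and III, 24 had a peak and were counted, with a median of -0.027 (-0.20 to 0.12), 3 intervals above 0 and 4 below. For both lists, the share over all coding genes tested was 18.5% above 0 and 15.9% below.

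Gene length and GC content moved with the ratio inside the group. The median log2 ratio was 0.12 in the 24 transcription genes under 10 kb, 0.032 in the 26 of 10 to 30 kb and -0.060 in the 25 of 30 kb or more, and over all coding genes of these lengths it was 0.072, 0.022 and -0.037. Across the 75 genes, Spearman's rho of the ratio was -0.31 with gene length and 0.32 with the GC content of the peaks (Pearson's r -0.27 and 0.24), and across 9456 coding genes -0.11 and 0.42 (-0.08 and 0.33). Genes are not independent replicates, and all points share the same 2 libraries and their depth. Of the 9 genes with intervals above 0, 6 were under 10 kb long, against 323 of 1750 coding genes with such an interval. Of the genes tested, 24 of the 75 transcription genes and 1968 of the 9456 coding genes were under 10 kb. The median peak number was 2 in the short transcription genes against 22 in the long ones, with a median counting SE of 0.23 against 0.10. After the GC correction rho with GC content was 0.0065 across all coding genes but -0.30 across the 75, so the corrected values of the transcription genes are not free of a GC trend, and rho with gene length was -0.14 across the 75. With the GC correction, the medians of the families were 0.060 for Polr2, -0.071 for Gtf2, 0.030 for Med and -0.00070 for Taf. The split of intervals off 0 was then 4 above and 5 below, against 9 and 5 without that step and 14 and 4 on the values as deposited. Over all coding genes tested, the shares above and below 0 were 11.9% and 14.7%, against 18.5% and 15.9%, and 22.2% and 12.6%. The part of GC content in single ratios was not tested beyond these values.

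**Figure D5:**
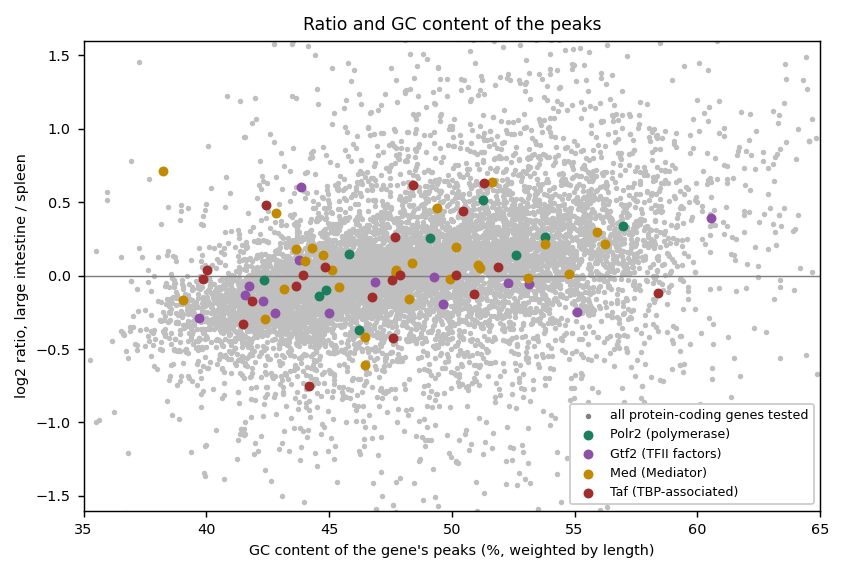
Log2 ratio, large intestine to spleen (y axis), against the GC content of a gene's peaks (x axis, %, weighted by peak length), with all coding genes in grey and the 75 transcription genes coloured by family, and 172 coding genes and 0 transcription genes outside the axes. The grey cloud climbs with GC content (Spearman's rho 0.42) and the coloured points follow it loosely (0.32).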

How the data were processed

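H3K36me3 was measured by ChIP-seq in 2 libraries, of splenic and large intestinal Treg cells, and the input library was not analysed here. The authors aligned reads to mm10 (Bowtie2 in the submitters' processing notes), called MACS2 peaks against the input, merged the peaks of both tissues with bedtools, made RPKM-scaled coverage tracks and averaged them over each merged peak, so the deposited values are mean RPKM per peak. The file calls these raw counts, but RPKM values are not counts, so no count test was run. Versions are not given in the sources used here.

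Peak values were summed per GENCODE M21 gene body by midpoint after scaling, with a pseudocount of 0.5 RPKM and a filter of 20 RPKM over both libraries. Depth was inferred from the steps of the values multiplied by peak length. These products were whole multiples of the RPKM of 1 read in a 20-bp bin in 99.97% (spleen) and 99.98% (LI) of the peaks low enough to tell (tolerance 0.05 of a step). The counting interval rests on 1 read per 200 bp and on reads as independent molecules. Sequences and GC content were read from GRCm38, whose chromosome lengths hold all peaks. Named were the genes with no peak, past 2-fold or with extreme interval bounds, the 5 highest densities, all Polr2 genes and a list of Med, Taf, Gtf2 and partner genes with known roles. Other genes named were chosen after their values were seen. The members and lists were chosen with earlier results of these data known. The scripts were tested on simulated data and used Python 3.11.15, numpy 2.4.6, pandas 2.3.3, scipy 1.17.1 and matplotlib 3.10.9. Alternatives covered scaling, pseudocount, filters, the summary over peaks, peak assignment, GC content, chromosomes and read span. A further marker gene is not reported here.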

Additional observations from a re-analysis of the deposited data

How the results depend on the processing

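The median log2 ratio of the 75 transcription genes lay between -0.035 (at least 200 RPKM over both libraries) and 0.062 (strongest peak of each gene) under every alternative tried. The median over all coding genes under these 2 settings was -0.029 and 0.060. Medians near 0 often changed sign, in 16 of 84 recomputed values (2 for the 75 genes, 2 for Polr2, 1 for Gtf2, 6 for Taf, 5 for the partner genes). The Gtf2 median went from -0.073 to 0.098 when a gene was read from its strongest peak, and the partner gene median was 0.11 under that setting. The Polr2 value was -0.027 with at least 200 RPKM, where 1 gene (Polr2b) was left, and the Polr2 median was -0.037 with peaks of 1 kb or more. The number of genes 2-fold or more higher in large intestine, 0 in the report, was 1 with no filter (Polr2i), with the strongest peak (Taf9b, 1.62), with peaks wholly inside the body (Med8, 1.09) and with the GC correction (Med7, 1.02). The share over all coding genes tested was 3.24% in the report, and under these settings 4.68%, 4.02%, 3.61% and 2.44% in turn. The number with an interval above 0, 9 in the report, was 14 on values as deposited, 2 (of 30 genes) with at least 200 RPKM, 4 with the GC correction, 16 with reads of 75 bp and 1 with reads of 400 bp. The share above 0 over all coding genes tested was 18.5%, and under these settings 22.2%, 20.2%, 11.9%, 28.7% and 11.1% in turn. The number below 0, 5 in the report, was 8 with peaks weighted by length, 2 with the strongest peak, 15 with reads of 75 bp and 2 with reads of 400 bp. It was 9 when every base of any peak in the body was counted, an alternative chosen after seeing the data. The share below 0 over all coding genes tested was 15.9%, and under these settings 17.9%, 7.15%, 26.8%, 9% and 17.6% in turn. The share of signal in peaks centred past the middle was 56.2% in spleen and 58.3% in large intestine when peaks were not weighted by length. Single genes changed sign in 95 of 803 values, in 43 of the 75 genes. Of the genes with an interval off 0, those that did were Med13 at 0.73 (strongest peak) and 0.12 (GC correction) and Med14 at 0.17 (strongest peak), and the cause was not tested. No paired analysis was possible because each tissue had 1 library. The length a read covers is not given in the sources used here, and with 1 library per tissue depth sets only the counting error.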
